A study of Mus musculus with 24 samples.

Results

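Neuregulin 1 (Nrg1), the other EGF-family ligand genes Hbegf, Areg, Ereg, Tgfa and Btc, and the receptor genes Egfr, Erbb2, Erbb3 and Erbb4 were read out from peak lists of 2 mouse melanoma lines. These are 10 named genes of 21900 protein-coding genes in the RefSeq table of GRCm38.p6, the assembly of mm10. The genes were picked by name with earlier results of these data known, so every value below is a description and none is a test. Chromatin proteins and the promoter mark H3K4me3 were mapped by CUT&RUN, where a nuclease held in place by an antibody cuts out the DNA beside the bound protein. Line 493 carried a Kmt2d mutation (mutant), and line 971 was wild type for Kmt2d (WT). Both were mouse melanoma cells cultured in DMEM/F12 medium with serum, and the labels do not give the allele, the tumour model or other mutations of either line. Of 24 samples, 22 had a peak list, 12 from the mutant line and 10 from the WT line. The remaining 2 were rabbit IgG controls, 1 per line, and were not analysed here. H3K4me3, Menin, TFAP2A, ARID1A, UTX, SMARCC1, ARID2, PBRM1 and BRD9 (9 paired targets) had a list in each line. TFAP2B and SOX10 (antibodies T and U) had a list in the mutant line only, and KMT2D in the WT line only.

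ERBB receptors are tyrosine kinases that pair up when an EGF-family ligand binds, and signal mainly through the RAS to MAPK and the PI3K to AKT routes. Most of the ligands are made as membrane-bound precursors and are shed by metalloproteases. ERBB3 has little kinase activity of its own and works mostly with ERBB2, which has no known ligand. NRG1 binds ERBB3 and ERBB4, and NRG1 with ERBB3 is known for its part in neural crest and glial development and in drug tolerance of melanoma. KMT2D is a histone H3 lysine 4 methyltransferase of enhancers, and UTX, an H3K27 demethylase, sits in the same complex. Menin belongs to the KMT2A and KMT2B complexes. SMARCC1 is a core SWI/SNF subunit, ARID1A marks the BAF form, ARID2 and PBRM1 the PBAF form and BRD9 the non-canonical form. TFAP2A, TFAP2B and SOX10 are transcription factors of the neural crest lineage.

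There was 1 library per line and target, so no replicate error exists, no test was possible, and with a single line for each genotype, line and genotype cannot be told apart. Fold enrichment, the summit signal over the local background, is the authors' value for each peak and was compared within a list only. A rank in a list is by that fold enrichment. The share of cells with a site and its occupancy per cell cannot be told apart in such data. Caller depth in megafragments, rebuilt from the peak values, was between 0.404 and 2.21 in mutant lists and between 0.861 and 1.21 in WT lists. The mutant to WT ratio of depth was 0.393 for SMARCC1 and between 1.58 and 2.37 for the other paired targets. List lengths ran from 90 to 25385 peaks. Of 8 pigment cell genes, H3K4me3 lay at an end of Sox10, Mitf and Pmel in the mutant line and of Mitf and Pmel in the WT line, and Tyr, Tyrp1, Dct, Mlana and Kit had none in either line. Of other cell types, Krt10 of 4 keratinocyte, Col1a1, Pdgfra and Pdgfrb of 6 fibroblast, none of 4 blood cell and Kdr of 3 endothelial markers had H3K4me3 in both lines.

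A gene-end peak lies within 1 kb of either end of the gene as annotated, because the gene table gives no strand. A peak at the start of a neighbouring gene can thus be counted, as for most targets at Erbb3, which lies beside Pa2g4 (described below). H3K4me3 lay at an end of 9 of the 10 genes in the mutant line, against 53.8% of all genes, and of 8 in the WT line, against 49.3%. Nrg1 had no gene-end peak of any target in either line, and Erbb4 had H3K4me3 in the mutant line only, as had 5.09% of all genes. Menin lay at an end of Hbegf, Areg, Ereg, Erbb2 and Erbb3 in the mutant line (5 genes, against 37.9% of all genes) and of Hbegf, Areg and Erbb3 in the WT line (3 genes, against 31.6%). TFAP2A lay at an end of Hbegf, Areg, Ereg, Tgfa, Erbb2 and Erbb3 in the mutant line (6 genes, against 34% of all genes) and of Hbegf and Erbb3 in the WT line (2 genes, against 24.6%). The 4 genes with TFAP2A in the mutant line only were Areg, Ereg, Tgfa and Erbb2, where 10.6% of all genes had that pattern. At equal caller depth, Ereg and Erbb2 kept the mutant TFAP2A peak, and Areg and Tgfa did not.

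Chromatin remodelling and UTX calls at gene ends were few. ARID1A lay at an end of Ereg and Erbb3 in the mutant line (2 genes, against 20.9% of all genes) and of Hbegf, Ereg and Erbb3 in the WT line (3 genes, against 15.7%). UTX lay at Erbb3 in the mutant line (1 gene, against 8.86%) and at Ereg and Erbb3 in the WT line (2 genes, against 11.2%). SMARCC1 was called at Erbb2 and Erbb3 in the mutant line (2 genes, against 0.598%) and at Erbb3 in the WT line (1 gene, against 2.72%), all near the threshold of the caller as described below. ARID2 had a peak at none of the 10 genes in the mutant line (0.932% of all genes) and at Ereg in the WT line (0.986% of all genes). PBRM1 and BRD9 had a gene-end peak at none of the 10, against 2.03% and 0.0183% of all genes in the mutant line and 1.9% and 0.21% in the WT line. Of the unpaired targets, KMT2D lay at Ereg and Erbb3 (10.2% of all genes), TFAP2B at Hbegf and Erbb2 (21.9%), and SOX10 at no gene end with antibody T (0.991%) or antibody U (3.83%). In all, the 9 paired targets made 25 pairs of gene and target in the mutant line and 20 in the WT line. At equal depth these became 20 and 19. Besides the TFAP2A calls named above, the mutant Menin calls at Areg and Erbb2, the mutant ARID1A call at Ereg and the WT SMARCC1 call at Erbb3 were then lost.

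**Figure D1:**
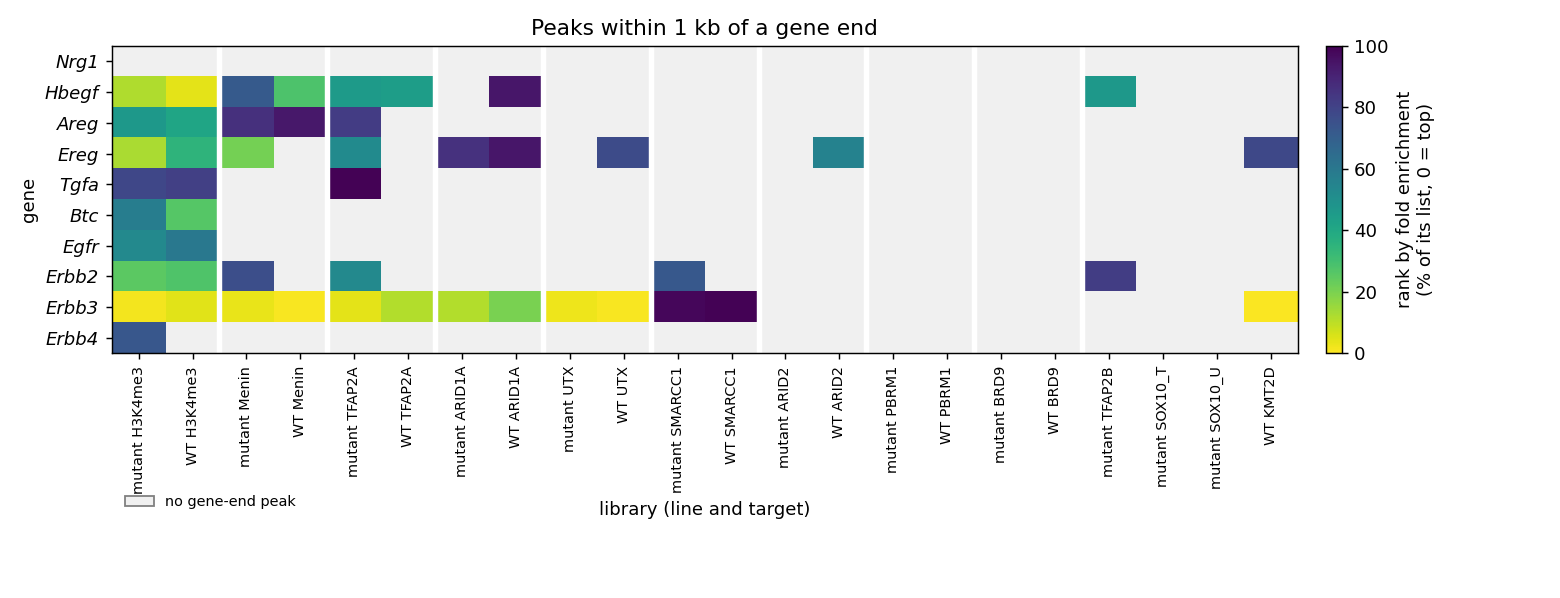
Peaks within 1 kb of a gene end, by gene (rows) and library (columns, mutant left of WT for the paired targets). Colour gives the rank of the highest gene-end peak by fold enrichment as a percent of its own list, from 0 (top) to 100 (bottom), and pale cells have no peak. Erbb3 holds ranks near the top for most targets, from peaks at or near the start of the neighbouring gene Pa2g4. Its SMARCC1 ranks are near the bottom, and the Nrg1 row is empty.

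The 1 kb limit fell close to some peaks. At Btc the H3K4me3 peaks farther from the end ended 921 bp (mutant) and 962 bp (WT) from it, a Menin peak of the mutant line stood 995 bp from an end of Hbegf, and the WT KMT2D peak stood 906 bp from an end of Erbb3. At that end of Erbb3, WT peaks of UTX, ARID1A, SMARCC1 and TFAP2A stood 858, 939, 941 and 961 bp away. The mutant TFAP2A peak there stood 900 bp away. Just outside were the TFAP2B peak 1016 bp and the SOX10 T peak 1176 bp from the same end of Erbb3, and a mutant TFAP2A peak 1112 bp from an end of Erbb2.

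Counted over each gene with 20 kb on either side, the 9 paired targets gave 99 mutant and 108 WT peaks for the 10 genes. The median was 9.5 mutant and 7.5 WT peaks per gene, against 5 and 4 over all genes. These counts were not adjusted for gene length, and Nrg1 and Erbb4 are 1084 and 1077 kb long. Peaks at starts of neighbouring genes were counted too. Erbb2 had 10 mutant and 4 WT peaks, Erbb3 20 and 14, Erbb4 4 and 0, Areg 7 and 6, and Ereg 20 and 19. Nrg1 ran the other way with 11 mutant and 30 WT peaks, as did Hbegf with 13 and 19 and Btc with 3 and 5. Egfr had 9 and 9, and Tgfa 2 and 2. So 5 of the 10 genes had more mutant peaks, against 42.9% of all genes, and 3 had more WT peaks, against 20.6%. At equal caller depth the order turned at Areg (4 mutant and 6 WT peaks) and Ereg (15 and 19), and Tgfa had 1 and 2. More mutant peaks were then found at 3 of the 10 genes and more WT peaks at 6. The shares of all genes at equal depth are not given here, so these counts cannot be set against the shares above. The order did not turn at Erbb2 (8 and 4), Erbb3 (16 and 13), Erbb4 (4 and 0), Nrg1 (10 and 28), Hbegf (11 and 19) or Btc (3 and 4).

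**Figure D2:**
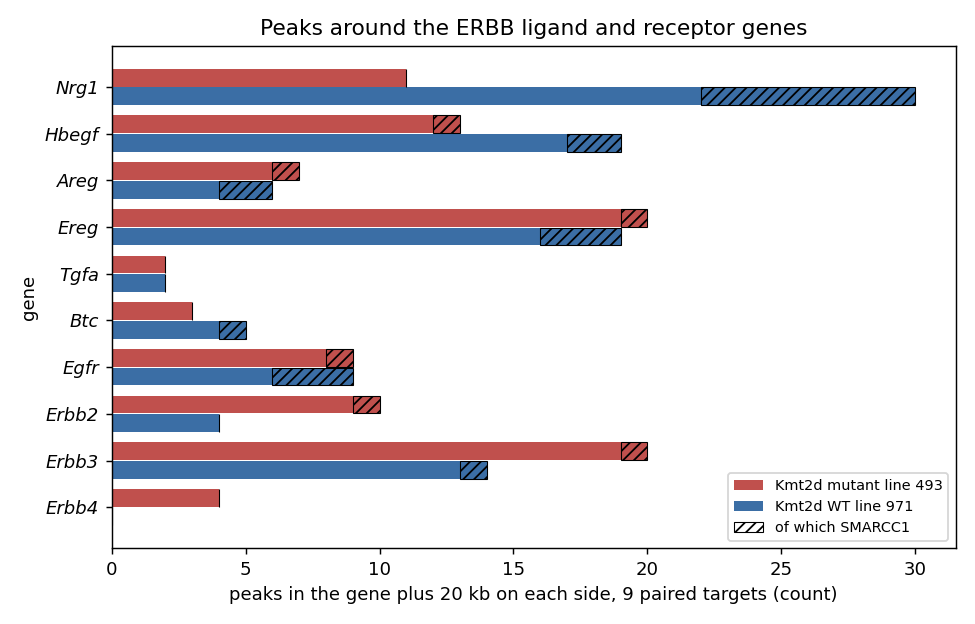
Number of peaks (x axis) in each gene plus 20 kb on either side over the 9 paired targets, with the mutant bar above the WT bar and the SMARCC1 peaks hatched. Nrg1 has 11 mutant and 30 WT peaks, and Erbb2 10 and 4.

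Nrg1 (chr8:31807452-32891609, mm10, 1084 kb long) encodes the ligand of ERBB3 and ERBB4 and is known to use several promoters along its length. It carried peaks inside the gene at 13 of 14 sites, a site being a run of overlapping peaks from any library. The 7 sites called in both lines held all 11 mutant peaks, another 7 were WT only, and none was mutant only. Of the WT-only sites, 5 held ARID1A and 4 held SMARCC1.

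The mark of active promoters was found only in the interior of Nrg1. An H3K4me3 peak began 200.9 kb inside its lower-coordinate end in the mutant line (chr8:32008365-32009847, fold enrichment 15.6, rank 8544 of 16438). The peak began at 199.8 kb in the WT line (chr8:32007298-32009679, fold enrichment 18.9, rank 2730 of 14666). The same place held ARID1A (5.09) and TFAP2A (5.09) in the mutant line, and ARID1A (4.30), TFAP2A (9.83) and a pair of Menin peaks (6.09 and 6.61) in the WT line. This interior site was the one around Nrg1 with the most WT targets in common with the mutant line, at 3. A further H3K4me3 peak, at chr8:32292749-32293320 and of fold enrichment 4.48, was in the WT list only.

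ARID1A, the BAF subunit, had 6 mutant and 12 WT peaks around Nrg1. More ARID1A peaks in the WT than in the mutant line were found at 13.2% of all genes, and at equal depth Nrg1 still had 6 and 12. The 6 mutant peaks had fold enrichments of 14.3, 20.7, 5.09, 7.21, 8.40 and 18.5 in order along the chromosome. All 6 overlapped a WT ARID1A peak, so 6 of the 12 WT peaks were shared, against 70.9% of the whole WT ARID1A list. The shared WT peaks at Nrg1 had fold enrichments from 4.30 to 21.3 with a median of 8.69, and the unshared ones from 5.996 to 17.3 with a median of 9.97. In the whole WT list the shared peaks were the stronger ones, with a median of 10.7 against 6.56 for unshared peaks. The unshared WT ARID1A peaks around Nrg1 thus had a median above that of the unshared peaks of the whole list.

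SMARCC1 had 0 mutant and 8 WT peaks around Nrg1, and more WT than mutant SMARCC1 peaks were found at 24.5% of all genes. The WT peaks had fold enrichments from 4.48 to 17.0 with a median of 8.06, and 7 of the 8 overlapped a WT ARID1A peak. The mutant SMARCC1 list was called at the lower depth and held 2910 peaks against 11507, and 16.9% of the whole WT list was shared. At equal depth 6 of the 8 WT peaks stayed, and with equal numbers of peaks 3. Without SMARCC1, Nrg1 had 11 mutant and 22 WT peaks.

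The other targets at Nrg1 were sparse. TFAP2A had 3 mutant peaks (fold enrichments 5.09, 7.67 and 6.91) and 4 WT peaks (9.83, 12.1, 7.03 and 4.79), and the WT peak of 7.03 was the unshared one. UTX had 1 mutant peak (5.22) and 2 WT peaks (8.47 each), and Menin 0 mutant and 2 WT peaks. KMT2D had 1 peak, of fold enrichment 7.90 (rank 3742 of 6434), at chr8:31829274-31829552, 21.8 kb inside the gene. ARID1A (14.3) and UTX (5.22) were present there in the mutant line, and ARID1A (21.3), SMARCC1 (13.4) and UTX (8.47) in the WT line. The 7 WT-only sites of Nrg1 held 0 KMT2D peaks. The share of WT-only sites with KMT2D over all genes is not given here, so this count cannot be set against it.

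Read from the lower-coordinate end, the WT-only sites of Nrg1 lay at chr8:31842019-31842543 (ARID1A 9.97, SMARCC1 5.37), chr8:32047734-32048108 (ARID1A 10.53) and chr8:32218975-32219386 (ARID1A 9.97, TFAP2A 7.03, UTX 8.47). Then came the H3K4me3 site above, chr8:32375429-32375760 (SMARCC1 9.85) and chr8:32470343-32470704 (ARID1A 5.996, SMARCC1 6.27). The last, chr8:32908693-32909108 (ARID1A 8.83, SMARCC1 6.27), was 17.1 kb outside the gene. Beyond the site at chr8:32286553-32286914, no peak of any mutant list fell in the remaining 605 kb of the gene, which held 4 WT peaks.

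**Figure D3:**
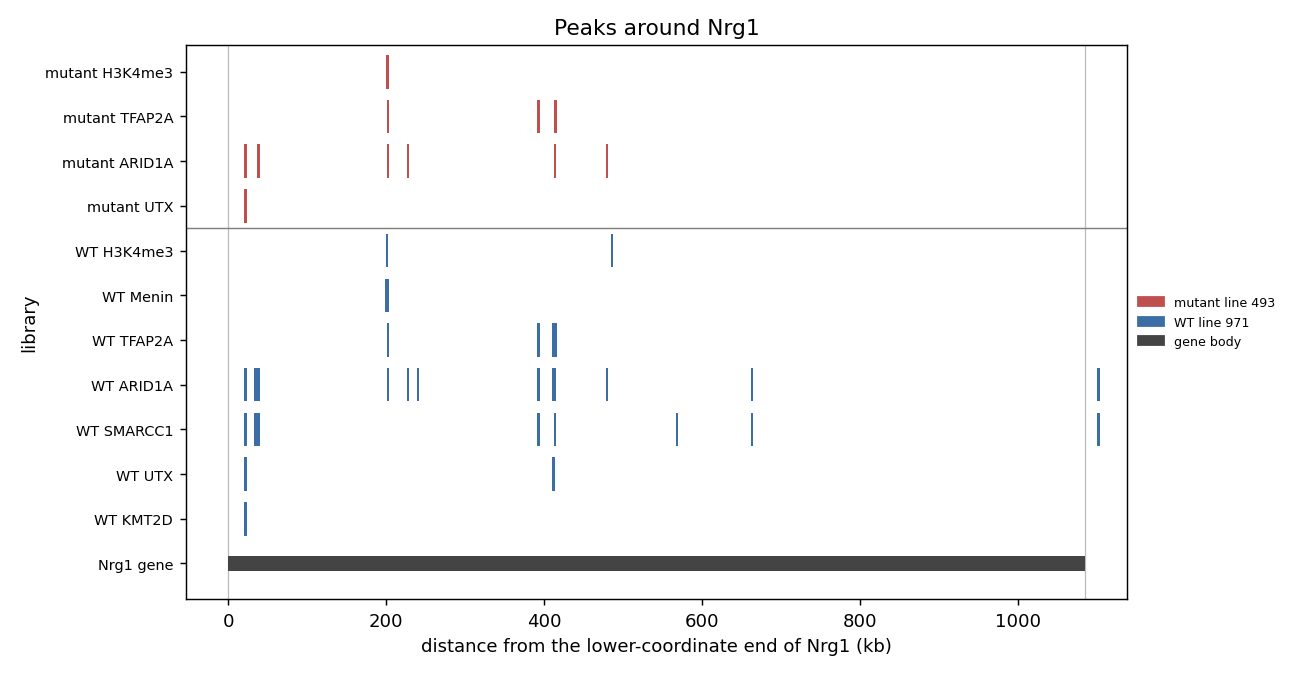
Peaks around Nrg1 by library, mutant tracks above WT tracks, against the distance in kb from the lower-coordinate gene end (0). Short peaks are drawn at a minimum width, so nearby peaks merge. The mutant tracks end near 479 kb, and the last WT ARID1A and SMARCC1 peaks inside the gene stand 421 kb before its far end.

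Of 1909 genes with at least 15 WT peaks over the paired targets, the median ratio of mutant to WT peaks was 1. Nrg1 had a ratio of 0.367, and 14 of these genes, Nrg1 included, were at or under it. The genes were chosen by their WT peaks alone, which favours low ratios, so this place is partly built in. It is a description and no support for a difference between the lines. The counts also include SMARCC1, whose mutant list was called at the lower depth. The 5 genes other than Nrg1 with the lowest ratios were Mtap (0 mutant and 16 WT peaks), Kcnip1 (3 and 26), Sntg1 (3 and 18), Ptprk (4 and 17) and Plau (4 and 16). The measure is this ratio over 2 lines, with 1 library per target. In these 5 genes ARID1A had 0 mutant and 1 WT peak at Mtap, 3 and 10 at Kcnip1, 2 and 6 at Sntg1, 1 and 6 at Ptprk and 3 and 6 at Plau, and the mutant line had 0 SMARCC1 peaks at each.

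Hbegf (chr18:36504927-36515805, 10.9 kb long), the gene of a heparin-binding ligand of EGFR and ERBB4, carried its highest peaks outside the gene. The main distal site spanned chr18:36492453-36493901, 11.0 kb from the lower-coordinate end, with the next protein-coding gene, Slc4a9, 34165 bp away on the far side of Hbegf. In the mutant line the site held TFAP2A (fold enrichment 52.6), ARID1A (33.4), UTX (27.0), TFAP2B (17.8), SMARCC1 (3.86) and a pair of SOX10 U peaks (4.53 and 5.44). In the WT line it held UTX (141), KMT2D (109), TFAP2A (73.6), ARID1A (23.0) and SMARCC1 (11.6). The ranks of the WT peaks were 20 of 9712 for UTX, 15 of 6434 for KMT2D and 66 of 11636 for TFAP2A. The mutant UTX peak ranked 318 of 9707, and the mutant TFAP2A peak 547 of 18530. All 4 paired factors of the site were thus called in both lines, and no H3K4me3 or Menin peak lay there in either line.

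A second distal site of Hbegf, 6.78 kb from the same end, held most of the same targets at lower fold enrichments. It held ARID1A (16.0), UTX (9.58) and TFAP2A (6.79) in the mutant line. The WT line had ARID1A (21.3), UTX (19.1), KMT2D (11.4), SMARCC1 (8.02), TFAP2A (6.47) and Menin (5.57). SMARCC1 and Menin were called at this second site in the WT line only.

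At the higher-coordinate end of Hbegf, H3K4me3 had a fold enrichment of 32.6 in the mutant line (rank 1962 of 16438) and 24.9 in the WT line (rank 591 of 14666). TFAP2A stood there at 9.21 in the mutant line and 9.83 in the WT line, and TFAP2B at 7.97 in the mutant line. ARID1A was called at that end in the WT line only (4.30, rank 20895 of 22199), as at 2.76% of all genes, and a WT ARID1A peak of 4.86 stood 1.49 kb away. Past that end, a WT ARID1A peak of 9.71 stood alone 3.27 kb out. A last site 6.07 kb out held Menin in the mutant line (4.25), and Menin (9.22) and ARID1A (8.26) in the WT line. Counted as sites, Hbegf had 4 in both lines, 1 in the WT line only and none in the mutant line only.

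**Figure D4:**
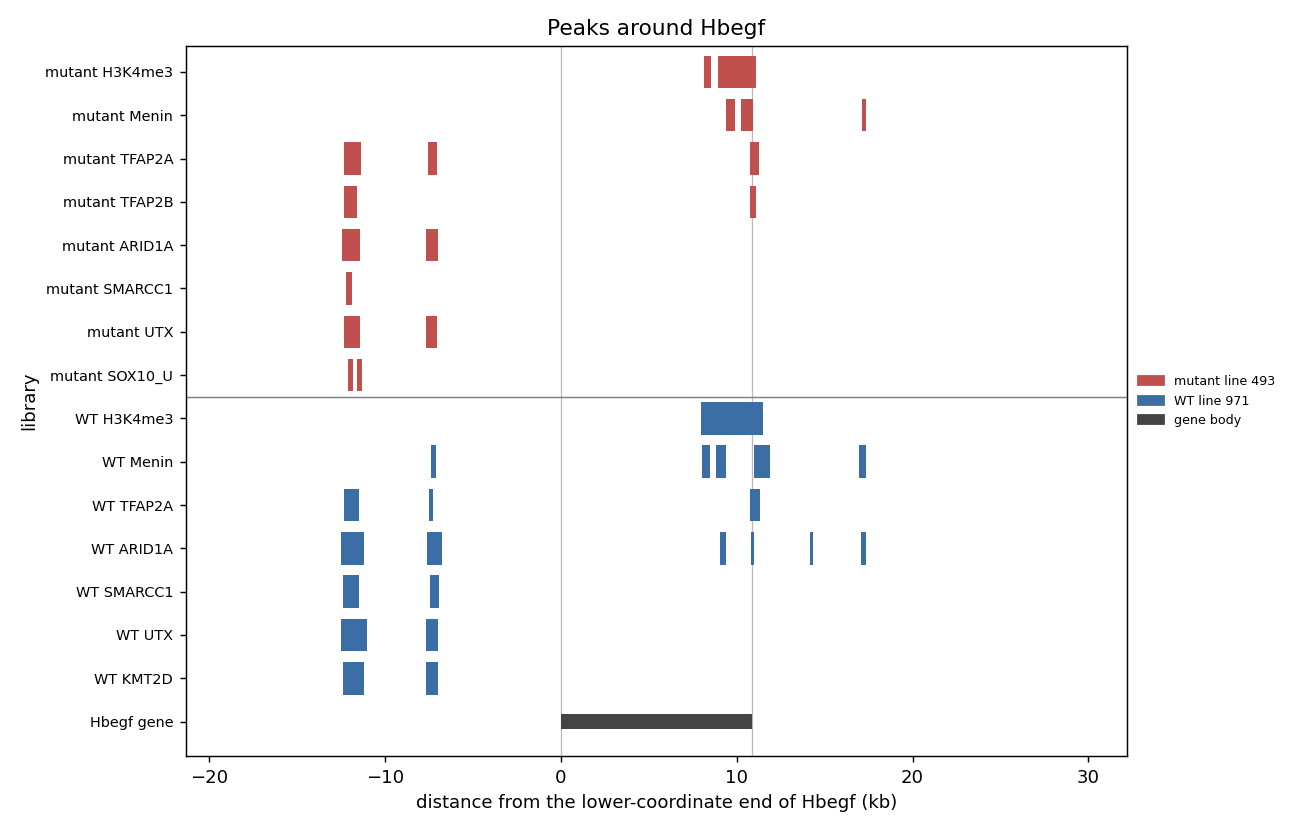
Peaks around Hbegf by library, mutant tracks above WT tracks, against the distance in kb from the lower-coordinate gene end (0). The 2 distal sites stand left of the gene, and the H3K4me3 peaks lie over the other end of the gene.

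Ereg (chr5:91074617-91093649), which encodes epiregulin, a ligand of EGFR and ERBB4, was the ligand gene with the most mutant peaks. A broad H3K4me3 peak of 5.42 kb (mutant) and 5.45 kb (WT) covered its lower-coordinate end, with fold enrichments of 32.0 and 14.9. Menin had 4 mutant peaks in that stretch (5.40 to 9.97) and no WT peak, and a Menin gene-end peak in the mutant line only was found at 8.28% of all genes. In the mutant line TFAP2A (7.67) and ARID1A (5.11) were called there, and in the WT line UTX (6.20), KMT2D (5.80), ARID2 (5.43) and ARID1A (4.30). The UTX and ARID2 calls in the WT line only had counterparts at 4.43% and 0.406% of all genes. Inside the gene, 7.99 kb from that end, a site held ARID1A (21.1), TFAP2A (7.08), TFAP2B (5.89) and UTX (5.58) in the mutant line. The WT line had ARID1A (21.9), TFAP2A (21.0), SMARCC1 (9.85), UTX (6.95) and Menin (4.004) at that site. Past the other end, 7.5 kb out, ARID1A had a fold enrichment of 27.7, UTX 3.48 and SMARCC1 2.90 in the mutant line. There the WT line had ARID1A at 30.7, SMARCC1 at 26.1 (rank 328 of 11507), UTX at 11.6, TFAP2A at 7.36 and KMT2D at 4.82. ARID1A was therefore called in both lines at each of these 3 sites of Ereg.

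Areg (chr5:91139599-91148432) encodes amphiregulin, an EGFR ligand. H3K4me3 at its start had a fold enrichment of 17.6 in the mutant line and 13.5 in the WT line, with Menin at 4.33 and 4.36, and TFAP2A at 4.98 in the mutant line only. A site 8.11 kb beyond its other end held ARID1A (24.2), SMARCC1 (5.80) and TFAP2A (5.09) in the mutant line and ARID1A (21.9), SMARCC1 (14.3) and TFAP2A (6.47) in the WT line. A site inside Areg, 3.09 kb from its other end, held ARID1A (4.36) in the mutant line and SMARCC1 (6.27) in the WT line, with no target in common.

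Tgfa (chr6:86195038-86275744), the gene of the EGFR ligand TGF-alpha, and Btc (chr5:91357261-91402994), the gene of betacellulin, had few peaks. H3K4me3 at the start of Tgfa had fold enrichments of 6.83 (mutant) and 5.28 (WT). A mutant TFAP2A peak of 3.30, rank 18457 of 18530, overlapped it. The only other peak in the Tgfa locus was a WT ARID1A peak of 6.56, 14.2 kb outside the gene. At the start of Btc there were 2 H3K4me3 peaks in each line, of 13.3 and 10.9 (mutant) and 16.9 and 12.2 (WT). A site inside Btc, 18.3 kb from its lower-coordinate end, had ARID1A at 16.4 in the mutant line, and ARID1A at 7.13 and SMARCC1 at 5.37 in the WT line.

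RefSeq (GRCm38.p6) start sequences were matched for 6 of the 10 genes, namely Areg, Tgfa, Btc, Egfr, Erbb2 and Erbb4. The consensus of TFAP2 factors, GCCNNNGGC, reads the same on both strands, and no other motif was searched. It was present in 16.3% of 21263 windows of 250 bp before the starts of protein-coding genes. Of the 6 genes only Tgfa held it, with 2 matches, and both lay within the mutant TFAP2A peak, which covered 114 of the 250 bases. That peak was near the foot of its list (fold enrichment 3.30, rank 18457 of 18530) and was lost at equal depth. The window of Erbb2 held no match, although the mutant TFAP2A peak covered 99 of its bases and the TFAP2B peak 38. A match is a string of letters and not a shown binding site. The pair is printed 5′ to 3′ because these are the gene starts where TFAP2A was called in the mutant line only and the peak reached into the window. Capitals mark the consensus in Tgfa (chr6:86194972-86195221, plus strand) and the bases inside the mutant TFAP2A peak in Erbb2 (chr11:98412234-98412483, plus strand).
Tgfa: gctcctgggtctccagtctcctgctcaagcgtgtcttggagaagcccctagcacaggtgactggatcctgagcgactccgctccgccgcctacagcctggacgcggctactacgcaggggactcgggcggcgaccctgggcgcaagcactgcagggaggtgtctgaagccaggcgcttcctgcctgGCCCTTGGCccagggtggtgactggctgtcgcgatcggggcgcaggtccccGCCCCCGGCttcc
Erbb2: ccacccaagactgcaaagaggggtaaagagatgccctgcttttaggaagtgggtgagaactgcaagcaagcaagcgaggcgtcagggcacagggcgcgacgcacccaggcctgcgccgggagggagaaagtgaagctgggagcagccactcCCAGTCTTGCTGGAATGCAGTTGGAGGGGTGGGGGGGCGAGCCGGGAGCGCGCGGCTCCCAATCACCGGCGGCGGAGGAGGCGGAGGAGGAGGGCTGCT

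Egfr (chr11:16752203-16913907), the receptor of most of these ligands, had H3K4me3 at its start at 15.3 in the mutant line and 9.27 in the WT line and no other gene-end peak. An interior site 48.1 kb from the start held ARID1A (13.1), TFAP2B (6.48) and TFAP2A (5.08) in the mutant line. The WT line had ARID1A (20.2), SMARCC1 (10.7), TFAP2A (10.4), UTX (9.23) and KMT2D (6.50) there. UTX and SMARCC1 were thus called at this site in the WT line only. A site 16.4 kb outside the start went the other way for UTX, with ARID1A (25.6), UTX (9.58) and SMARCC1 (3.86) in the mutant line and ARID1A (10.8) and SMARCC1 (9.48) in the WT line. An ARID1A peak of 17.1, 57.9 kb inside Egfr, was found in the mutant list only.

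Erbb2 (chr11:98412484-98437716), the receptor without a ligand, had 10 mutant peaks and 4 WT peaks. At its start H3K4me3 had a fold enrichment of 26.1 in the mutant line and 16.5 in the WT line. TFAP2A (7.64), Menin (4.82) and SMARCC1 (2.90, −log10 q 1.43) were called there in the mutant line and none of them in the WT line. TFAP2B, which had a list in the mutant line only, stood there at 4.44. A SMARCC1 gene-end peak in the mutant line only was found at 0.338% of all genes. Within 1 kb of the other end, outside Erbb2, H3K4me3 stood at 17.9 (mutant) and 5.16 (WT). These peaks lay at the start of the neighbouring gene Mien1 in the RefSeq start sequences (chr11:98438988). The mutant peak covered that start, and the WT peak ended just short of it. A site 11.6 kb before the start of Erbb2, at the start of Pgap3, held H3K4me3 (11.0), PBRM1 (9.19) and Menin (7.68) in the mutant line and PBRM1 (7.84) and H3K4me3 (6.77) in the WT line. The 1 WT peak at the start itself was therefore H3K4me3, and the other WT peaks lay at or just beside the starts of Pgap3 and Mien1.

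Erbb3 (chr10:128567523-128589635), the receptor of NRG1 with little kinase activity, had the highest gene-end fold enrichments of the 10 genes for UTX, TFAP2A, ARID1A and Menin in each line, and for KMT2D. At its lower-coordinate end the mutant line had TFAP2A (fold enrichment 47.2), H3K4me3 (43.4, rank 319 of 16438), UTX (29.7), TFAP2B (27.5), ARID1A (24.0), Menin (18.1) and SOX10 T (5.45). The WT line had UTX (84.2), KMT2D (79.4, rank 46 of 6434), TFAP2A (24.7), H3K4me3 (24.5), Menin (21.7, rank 123 of 13481), ARID1A (15.7) and SMARCC1 (3.37, −log10 q 1.67). The region was called in 14 of the 22 libraries. All these peaks lay outside Erbb3, 364 to 1176 bp from its end, and over or within 369 bp of the start of the neighbouring gene Pa2g4, which encodes the ErbB3-binding protein EBP1. Without peaks near an end of another gene, the gene-end pairs of the 10 genes came to 23 in the mutant line and 16 in the WT line. The KMT2D peak of Erbb3 would be left out likewise, since it stood 10 bp from Pa2g4.

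The start window of Pa2g4 (chr10:128565935-128566184, minus strand) is printed 5′ to 3′ as the sequence under the highest KMT2D gene-end peak near a receptor gene. The KMT2D peak covered 241 of its 250 bases, the mutant TFAP2A peak 241 and the WT TFAP2A peak 250, and it held no GCCNNNGGC. Capitals mark the bases inside the mutant TFAP2A peak.
Pa2g4: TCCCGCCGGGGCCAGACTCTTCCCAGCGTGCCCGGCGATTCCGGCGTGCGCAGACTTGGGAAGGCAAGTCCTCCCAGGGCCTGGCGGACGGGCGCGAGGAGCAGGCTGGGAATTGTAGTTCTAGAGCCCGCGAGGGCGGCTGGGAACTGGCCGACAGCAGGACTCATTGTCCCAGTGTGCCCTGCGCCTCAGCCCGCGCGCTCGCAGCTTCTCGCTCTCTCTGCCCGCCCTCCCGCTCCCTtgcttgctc

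The peaks at or inside the higher-coordinate end of Erbb3 stood 20713 bp or more from Pa2g4. H3K4me3 there was 2.81 kb wide with a fold enrichment of 21.1 in the mutant line, and 0.879 kb wide at 9.64 in the WT line. ARID1A stood at 8.16 in the mutant line and 4.43 in the WT line. TFAP2A (5.63 and 3.98) and SMARCC1 (2.86, rank 2857 of 2910) were called at that end in the mutant line only. SOX10 U had peaks of 13.6 (rank 586 of 6358) and 11.1 (rank 1077 of 6358), 2.78 kb and 1.31 kb inside that end. So a SMARCC1 call counted for Erbb3 in each line, but at opposite ends of the gene and at the foot of each list.

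Farther out on the lower side, KMT2D (14.2), UTX (19.8 mutant and 19.1 WT) and Menin (3.59 mutant and 7.66 WT) lay at the start of Rpl41, a ribosomal protein gene. The mutant PBRM1 peak of the locus (7.43) lay at the start of Zc3h10. Of the 20 mutant and 14 WT peaks counted for Erbb3, 7 mutant and 2 WT peaks lay inside the gene or at its higher-coordinate end.

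**Figure D5:**
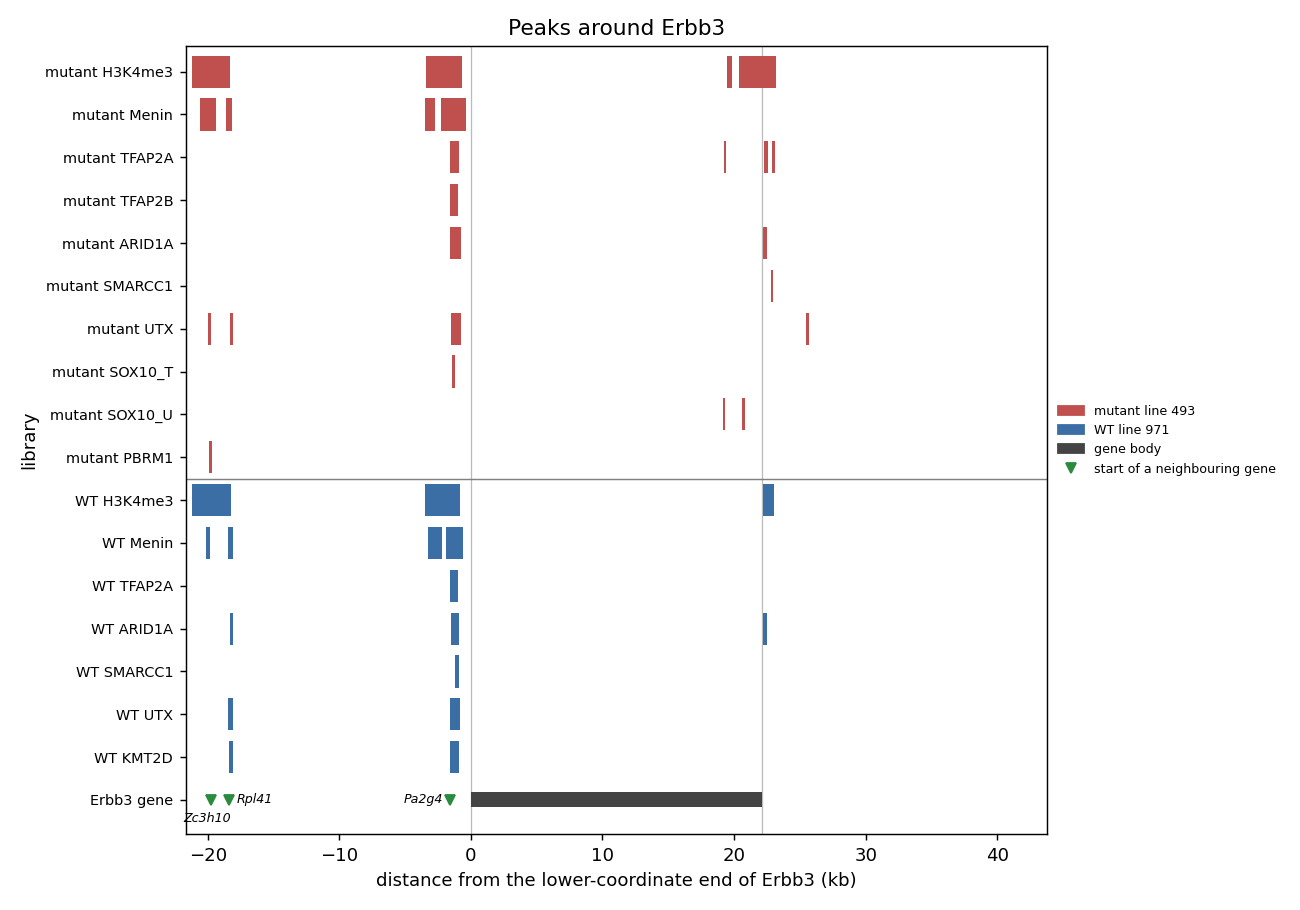
Peaks around Erbb3 by library, mutant tracks above WT tracks, against the distance in kb from the lower-coordinate gene end (0), with the starts of Zc3h10, Rpl41 and Pa2g4 as triangles. The KMT2D peaks stand at the starts of Pa2g4 and Rpl41, and the SOX10 U peaks inside Erbb3 near its other end.

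Erbb4 (chr1:68031884-69108576, 1077 kb long), the other NRG1 receptor, had no WT peak at all. The mutant line had 3 H3K4me3 peaks of 8.37, 6.73 and 8.04, which lay 1831, 1318 and 458 bp inside its higher-coordinate end, at ranks from 11787 to 12943 of 16438. The last of these covered the start of Erbb4 in the RefSeq start sequences (chr1:69108059, minus strand). UTX (8.67) and SOX10 U (6.33) of the mutant line lay at a site 492 kb from the higher-coordinate end. All 4 sites of Erbb4 were thus in mutant lists only, and each held 1 or 2 libraries.

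Seen by target over the gene plus 20 kb, KMT2D had peaks around Nrg1, Hbegf, Ereg, Egfr and Erbb3 (5 of 10, against 27.7% of all genes). The shares given here for the gene plus 20 kb were not adjusted for gene length. Each of the KMT2D sites was also called for another target in the mutant line. A site merges overlapping peaks of any library, and a peak of any mutant list counted, so this condition is easily met. The share of all KMT2D sites that meet it is not given here, so the overlap is a description only. TFAP2B had peaks around Hbegf, Ereg, Egfr, Erbb2 and Erbb3 (5 of 10, against 40.8%). SOX10 U had them around Hbegf, Erbb3 and Erbb4 (3 of 10, against 20.6%), and SOX10 T around Erbb3 (1 of 10, against 5.26%). SMARCC1 had more WT than mutant peaks around 6 genes (Nrg1, Hbegf, Areg, Ereg, Btc and Egfr; 24.5% of all genes) and more mutant peaks around Erbb2 (2.18% of all genes). With equal numbers of peaks, Nrg1 alone of the 6 had more WT SMARCC1 peaks (0 mutant and 3 WT). Hbegf, Areg and Ereg then had 1 in each line and Btc 0 in each, and Egfr had 1 mutant and 0 WT. The share of all genes with equal numbers of peaks is not given here. ARID1A had more WT peaks around Nrg1, Hbegf, Tgfa and Erbb3 (13.2% of all genes). It had more mutant peaks around Areg, Egfr and Erbb2 (26.1% of all genes).

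Among 48 other genes of the pathway, H3K4me3 calls were the same in both lines. The mark lay at an end of 41 in the mutant line and 41 in the WT line. All 20 adaptor and effector genes, 13 of 14 negative regulators, 7 of 9 shedding genes and 1 of 5 further ligands (Nrg2) had it in both lines. Egf, Epgn, Nrg3 and Nrg4 had none in either line. Over all genes the share with H3K4me3 was 53.8% and 49.3%. ARID1A lay at 21 of the 48 in the mutant line (20.9% of all genes) and 15 in the WT line (15.7%). TFAP2A lay at 31 (34%) and 26 (24.6%), Menin at 37 (37.9%) and 34 (31.6%), UTX at 11 (8.86%) and 13 (11.2%), and SMARCC1 at 0 (0.598%) and 4 (2.72%).

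By role, shedding genes differed at Adam15, which encodes a metalloprotease, with ARID1A (4.38) and UTX (5.22) in the mutant line only and TFAP2A (3.67) in the WT line only. Adam17, the main sheddase of EGFR ligands, had ARID1A (7.77) in the WT line only. Of the adaptors and effectors, ARID1A was called in the mutant line only at, among others, Shc1 (9.33), which encodes an adaptor, Gab1 (5.80) and Map2k2 (5.80). Src, a tyrosine kinase gene, had ARID1A (7.80) and UTX (13.7) in the WT line only. TFAP2A was called in the mutant line only at, among others, Gab1 (13.6), Map2k2 (11.0), Braf (8.48), Pik3ca (7.67) and Nras (5.09). Of the 48 genes, 7 had TFAP2A in the mutant line only (10.6% of all genes) and 2 in the WT line only (1.21%). ARID1A was mutant only at 8 (share of all genes not given here) and WT only at 2 (2.76%). At equal depth the pairs of gene and target of the 48 genes went from 142 to 135 (mutant) and from 134 to 131 (WT). Which of the calls named here stayed is not given. Of the negative regulators, Errfi1, which encodes an EGFR inhibitor, had TFAP2A (20.7) in the mutant line only and Spry1, a gene of an inhibitor of RAS signalling, had TFAP2A (7.03) in the WT line only. ARID1A lay at Spred2 (10.0), Dusp4 (5.80) and Dusp6 (4.27) in the mutant line only. UTX lay at Lrig1 (18.3) and Cblb (11.4), genes of a receptor-degrading protein and an E3 ligase, in the WT line only. SMARCC1 lay at Lrig1 (7.16), Cblb (4.42), Rnf41 (4.48) and Socs5 (4.48) in the WT line only. These peaks ranked 6075, 10510, 9629 and 9629 of 11507, and the genes are named after their values were seen. The mutant SMARCC1 list held 2910 peaks and was called at 0.393 of the WT depth. A missing mutant SMARCC1 peak at these genes is thus not shown to be absent.

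KMT2D lay at an end of 13 of the 48 genes, against 10.2% of all genes. They included Adam9 (fold enrichment 28.9) among the shedding genes, and Shc1 (36.4), Pik3r1 (19.8), Src (17.0) and Stat3 (13.4) among the effectors. The negative regulators were Lrig1 (14.9), Socs5 (14.9), Rnf41 (10.0), Spred2 (9.35), Spry2 (8.60), Cblb (8.39) and Cbl (6.50). RNF41 (NRDP1) is the E3 ligase known to turn over ERBB3. Shc1 was thus the pathway gene outside the 10 with the highest KMT2D value, below the 79.4 found next to Erbb3.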

How the data were processed

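CUT&RUN libraries of 24 samples were prepared with an Epicypher kit, per the labels' protocols. The submitters' processing notes name Bowtie2, FastQC, MACS2 and MultiQC and the build mm10. Their versions and settings, and the caller's threshold and control, are not given in the sources used here. The deposited lists give for every peak a score, a fold enrichment, which is a ratio over background, a −log10 p and a −log10 q. The weakest peak of a list had a −log10 q between 1.30 and 1.59.

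All 197727 peaks were used, 106919 mutant and 90808 WT. Protein-coding genes came from the RefSeq table of GRCm38.p6. A gene-end peak lies within 1 kb of either end, and locus peaks lie within the gene plus 20 kb. Peaks were shared if they overlapped by at least 1 bp, and overlapping peaks of any library were merged into sites. Caller depth was rebuilt from fold enrichment and −log10 p with a genome size of 1.87e+09. The recovery of summit fragments and background was checked on simulated data. The step from background to depth, which takes the shortest peak as the fragment length, was not checked. For equal depth, the deeper list was scaled down and peaks under the lowest −log10 p of the other list were dropped. No test was run.

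All 10 genes are named. Pathway genes are named where their H3K4me3, ARID1A, UTX or TFAP2A gene-end call differed between lines or KMT2D lay at an end, at most 10 per list, and some of them are not reported here. The genes like Nrg1 are the 5 with the lowest ratio among those with at least 15 WT peaks. Members and lists were chosen with earlier results of these data known. Sequences are the 250 bp before the start in RefSeq. Scripts ran in Python 3.11.15 with SciPy 1.17.1, NumPy 2.4.6, Matplotlib 3.10.9 and pandas 2.3.3.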

Additional observations from a re-analysis of the deposited data

How the results depend on the processing

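Counts were repeated with gene ends of 2.5 kb, flanks of 10 and 50 kb, a −log10 q of at least 5, equal numbers of peaks, equal depth, a stricter overlap, without regions called in at least 12 libraries and without SMARCC1. Leaving out peaks near an end of another gene was added after seeing the data. Of 72 repeated counts, 65 stayed within 1.5 times. With a flank of 50 kb, Hbegf had 25 mutant and 30 WT peaks in place of 13 and 19, and the 8 genes other than Nrg1 and Hbegf had 91 WT peaks in place of 59. With a −log10 q of at least 5, Hbegf had 8 mutant peaks, those 8 genes had 48 mutant peaks in place of 75, and 7 in place of 11 WT peaks around Nrg1 were shared with the mutant line. Without regions called in at least 12 libraries, the 48 pathway genes had 81 in place of 134 pairs of gene and target in the WT line. The cause was not tested. Nrg1 had 10 mutant and 28 WT peaks at equal depth, and 9 and 25 with equal numbers of peaks. No paired analysis was possible because there was 1 library per line and target and the labels carry no replicate numbers. The lists hold no signal outside peaks, so a missing peak was not detectable at this depth and is not shown to be absent.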
